A study of Mus musculus with 768 samples.

Results

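The genes described here are 8 that mark progenitor cells of the nervous system, namely Pax6, Sox1, Sox3, Sox9, Fabp7, Vim, Nes and Msi1, and the question is whether they were found in the same cells as Stmn2 or in other cells. They were chosen by name, all 8 were found among the 27723 genes measured, and symbols appear in capitals below as in the data. The cells are mouse embryonic stem cells of the line Ainv15, grown as embryoid bodies, which are floating clusters of differentiating cells. Every group carries the same doxycycline-inducible cassette of Ngn2 (also called Neurog2), Isl1 and Lhx3 with a V5 tag, a factor combination that drives stem cells towards motor neurons. The bodies were formed 2 days before doxycycline was added at 3 µg/ml, and the groups are cells before doxycycline (0 h) and after 6, 12, 18, 24, 30, 36 and 48 h of it. Living cells, marked with fluorescein diacetate, were sorted 1 to a well, with 96 wells for every time, and their RNA was read by SMART-Seq2, a full-length method used here without molecular tags.

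The labels do not tell cultures apart, so a time point counts as 1 sample, its cells are not replicates and no test was made. Values are TPM, a transcript abundance scaled to gene length and to the total of each cell. SDs are over cells, and intervals on shares are exact 95% binomial intervals that cover counting error only. The 368 of 768 cells in which 2000 or more genes were above 0 are described, from 14 cells at 48 h to 57 cells at 30 h. The time points fell into 2 sets by library character. At 0, 12, 36 and 48 h Sod1 averaged 19553 to 65262 TPM and 7.14% to 20.5% of cells showed Hprt, a gene that every cell uses. At 6, 18, 24 and 30 h Sod1 averaged 518 to 807 TPM and 59.6% to 67.9% of cells showed Hprt. The median kept cell had 2141 to 5304 genes above 0 in the first set and 6481 to 7484 in the second. A value of 0 in 1 cell can therefore be a missed transcript, and comparisons were made only within a set. The labels mention 2 library batches without assigning cells to them, so set and batch cannot be told apart.

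In the embryonic nervous system, neuroepithelial cells and later radial glia divide next to the ventricle and give rise to neurons. These progenitors express SOXB1 transcription factors such as Sox1 and Sox3, which hold cells in the progenitor state, and the paired-box factor Pax6, which patterns the ventral spinal cord. Their cytoskeleton contains the intermediate filament proteins nestin (Nes) and vimentin (Vim), and radial glia contain the brain fatty acid-binding protein Fabp7. Msi1 is an RNA-binding protein of dividing progenitors, and Sox9 takes part in the later change to glial production. Stmn2 encodes a microtubule-regulating stathmin of growing axons and is an early marker of postmitotic neurons, so in normal development it largely follows the progenitor genes rather than accompanying them.

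The genes lie at chr2:105668896-105698410 (Pax6), chr10:57784923-57788450 (Fabp7) and chr2:13574311-13582826 (Vim) in the RefSeq annotation of GRCm38.p6, the build also known as mm10. The 250 bases before the start of these 3 genes are shown because they were the members with the highest levels, and because Neurog2 binds E-boxes (CANNTG). E-boxes are in capitals, all sequences are on the plus strand, and Pax6 has 2 annotated starts. The windows are chr10:57784673-57784922, chr2:105668646-105668895, chr2:105682213-105682462 and chr2:13574061-13574310 in the order given.
Fabp7: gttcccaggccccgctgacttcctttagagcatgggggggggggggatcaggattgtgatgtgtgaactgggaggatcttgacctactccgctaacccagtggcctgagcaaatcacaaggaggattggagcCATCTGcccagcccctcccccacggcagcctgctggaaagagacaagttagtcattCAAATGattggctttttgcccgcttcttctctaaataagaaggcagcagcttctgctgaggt
Pax6 start 1: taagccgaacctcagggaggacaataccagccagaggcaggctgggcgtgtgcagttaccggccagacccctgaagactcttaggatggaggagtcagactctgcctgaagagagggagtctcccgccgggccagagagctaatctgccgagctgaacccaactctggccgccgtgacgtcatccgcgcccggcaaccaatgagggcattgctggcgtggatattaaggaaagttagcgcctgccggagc
Pax6 start 2: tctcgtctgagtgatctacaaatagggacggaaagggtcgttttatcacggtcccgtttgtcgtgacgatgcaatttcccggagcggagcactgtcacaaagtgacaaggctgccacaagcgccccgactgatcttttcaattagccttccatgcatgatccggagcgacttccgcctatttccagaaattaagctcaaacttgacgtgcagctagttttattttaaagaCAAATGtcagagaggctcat
Vim: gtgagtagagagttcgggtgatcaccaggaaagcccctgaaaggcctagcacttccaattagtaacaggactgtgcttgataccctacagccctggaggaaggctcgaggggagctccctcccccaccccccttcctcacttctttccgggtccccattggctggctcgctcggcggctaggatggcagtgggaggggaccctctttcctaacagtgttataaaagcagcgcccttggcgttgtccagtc
The Fabp7 window held 2 E-boxes, CATCTG and CAAATG, and the first of these is CAGATG read on the other strand. Start 2 of Pax6 held 1 E-box, CAAATG, and start 1 and the Vim window held none. Of 32851 RefSeq promoter windows of the same length searched on both strands, 66.22% held CANNTG and 14.44% held CAGATG, which is 1 form of CANNTG. The homeodomain core TAATTA was in none of the 4 windows and in 4.84% of all windows, while the shorter TAAT, which TAATTA contains, was in the Vim window, in both Pax6 windows and in 54.92% of all windows. The tables matched 5 of the 8 members; Sox3, Sox9 and Msi1 are named only.

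Across 6, 18, 24 and 30 h, PAX6, FABP7 and VIM were the members with substantial levels, and each was higher at 30 h than at 6 h. PAX6 averaged 15.3 ± 40.0, 30.8 ± 69.9, 26.1 ± 48.2 and 41.2 ± 61.0 TPM at 6, 18, 24 and 30 h. It was above 0 in 37.7% (24.8 to 52.1) of cells at 6 h, 55.4% at 18 h, 49.1% at 24 h and 73.7% (60.3 to 84.5) at 30 h. The median cell at 30 h had 18.2 TPM and the highest had 350 TPM, so at that time PAX6 was both more often found and higher than at 6 h, when the median was 0. FABP7 averaged 51.7 ± 152, 70.0 ± 111, 109.9 ± 162 and 178 ± 331 TPM at these times and was found in 43.4%, 62.5%, 67.3% and 59.6% of cells. Its range was wide, with a median of 51.0 TPM at 30 h and 1 cell at 2171 TPM. VIM was the most widely found member, in 88.7%, 91.1%, 89.1% and 84.2% of cells. Its mean was 94.5 ± 103.5, 128 ± 168, 285 ± 321 and 244 ± 377 TPM, and its median 68.0, 52.3, 137 and 121 TPM, so its level and not its share of cells differed over time.

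The log2 ratio of (mean + 1) at 30 h over 6 h was 1.77 for FABP7, 1.37 for PAX6 and 1.36 for VIM. These 3 were the members that had a mean of at least 10 TPM and were found in at least 25% of cells in the higher group, and all 3 were past 2-fold. Among all genes passing that filter 13.9% were at least 2-fold higher. Without the filter 4 of the 8 members were past 2-fold, the other being MSI1 with 1.89, against 12.5% of all genes above 0. The median over the 8 was 1.00 (all genes 0.13). When all cells were used, shallow ones included, the FABP7 ratio turned to −0.66. At 18 h against 6 h only MSI1 (1.07) was past 2-fold, where 9.16% of genes above 0 were, and at 24 h against 6 h FABP7 (1.07), VIM (1.58) and MSI1 (1.99) were, where 12.2% were.

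**Figure D1:**
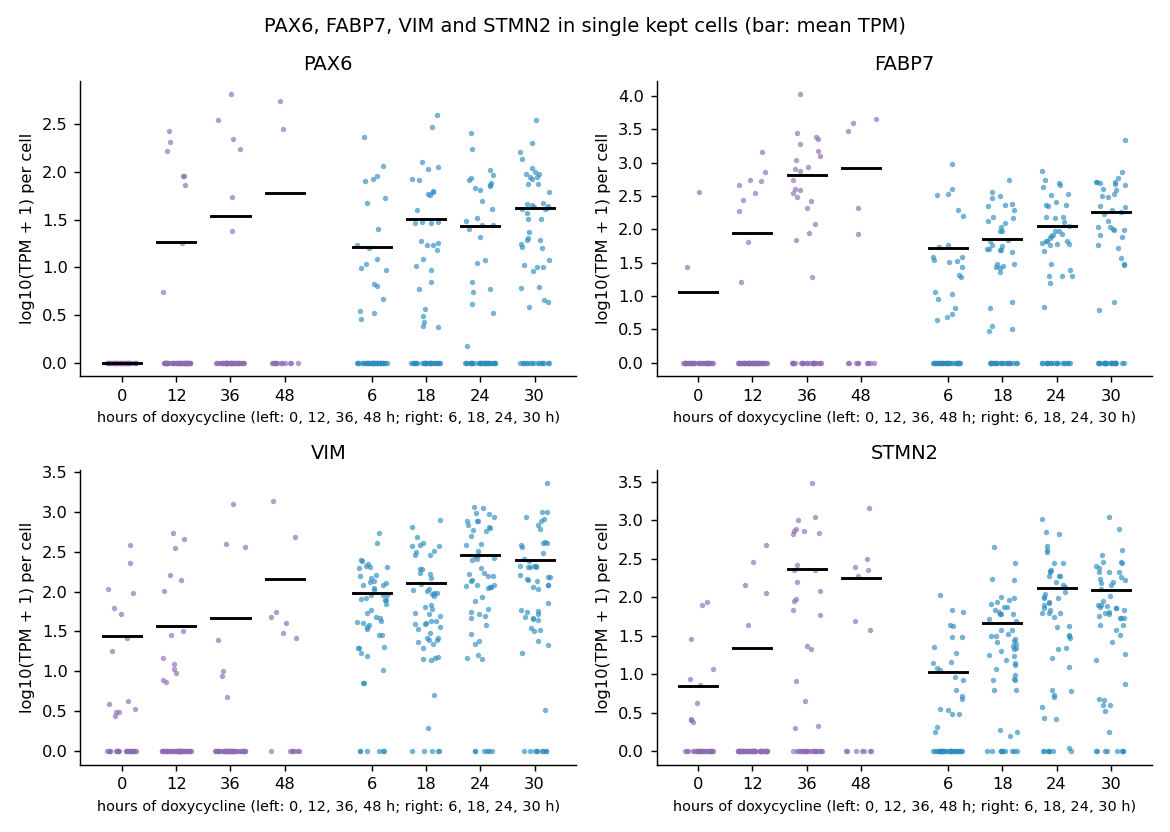
Each point is 1 kept cell, the vertical axis is log10(TPM + 1), and bars are the log10 of mean TPM + 1 at each time point; the 4 time points on the left and the 4 on the right belong to the 2 library sets. PAX6 is at 0 in all 37 cells at 0 h, and at 30 h it is above 0 in 42 of 57 cells.

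MSI1 and NES were low. MSI1 averaged 0.73, 2.63, 5.86 and 5.39 TPM at 6, 18, 24 and 30 h and was found in 9.43% (3.13 to 20.7) of cells at 6 h, against 42.9% at 18 h, 41.8% at 24 h and 40.4% (27.6 to 54.2) at 30 h. NES averaged 3.69, 5.91, 4.86 and 3.63 TPM and was found in 62.3%, 55.4%, 43.6% and 42.1% of cells. The SOX genes were close to absent. SOX1 never averaged above 0.62 TPM and was found in at most 4 cells per time point, SOX9 averaged at most 0.48 TPM in this set, and SOX3 averaged 1.39, 1.17, 1.49 and 2.21 TPM with 12.5% to 21.1% of cells above 0. SOX1, SOX3 and SOX9 were thus at 0 in most cells. The levels of the named group came from FABP7, VIM and PAX6.

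In the shallower set the pattern of SOX9 differed. SOX9 averaged 1.17 ± 3.71, 8.24 ± 29.7, 22.5 ± 48.1 and 19.5 ± 37.5 TPM at 0, 12, 36 and 48 h and was found in 18.9%, 19.2%, 34.1% and 35.7% of cells. FABP7 averaged 10.6, 87.9, 655 and 837 TPM, with 2 of 37, 10 of 52, 22 of 44 and 5 of 14 cells above 0, and its highest cell, at 36 h, had 10500.5 TPM. PAX6 was found in 0 of 37 cells at 0 h, and in 8 of 52, 6 of 44 and 2 of 14 cells at 12, 36 and 48 h. The count of 0 leaves room for PAX6 reads in up to 8.11% of cells (3 cells of 37; exact upper limit 9.49%), a bound on cells with a read and not on cells expressing the gene, as Hprt itself was seen in 10.8% of the 0 h cells. VIM averaged 26.4, 35.9, 46.1 and 144 TPM, with 37.8%, 26.9%, 15.9% and 50.0% of cells above 0, and its means at 36 and 48 h rest largely on 1 cell each, of 1229 and 1347 TPM, which hold 60.6% and 66.6% of the summed level. SOX3 went the other way, in 29.7%, 21.2%, 2.27% and 0% of cells, as did NES, in 24.3%, 21.2%, 6.82% and 0%; the median depth falls along the same series, and its part in these shares was not tested. Past 2-fold at 12 h, relative to 0 h, were 3 members, where 22.0% of genes above 0 were higher by as much: FABP7 and SOX9, with log2 ratios of 2.94 and 2.09, and PAX6, for which no ratio is given because it is listed at 0 in every 0 h cell. At 36 h against 0 h these 3 were higher again, with log2 ratios of 5.82 for FABP7 and 3.44 for SOX9, where 26.2% of genes above 0 were higher. With all cells, shallow ones included, the SOX9 ratio was −1.74 at 12 h and −0.17 at 36 h. SOX3 and NES were at least 2-fold lower, where 23.1% of genes were.

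**Figure D2:**
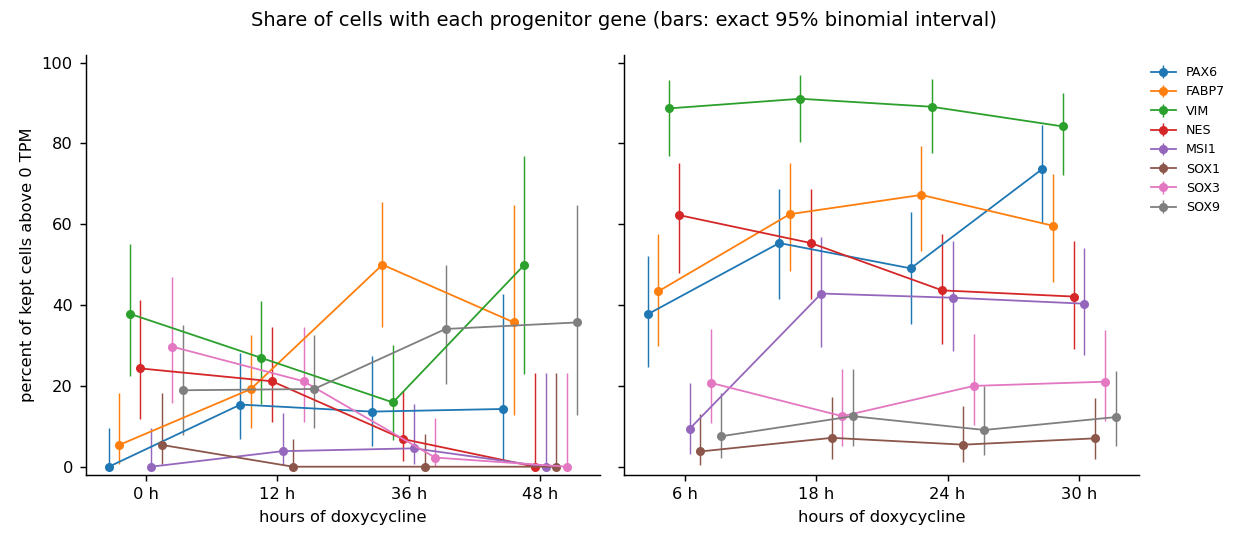
Percent of kept cells above 0 TPM for each of the 8 genes against hours of doxycycline, with exact 95% binomial intervals, for the shallower set (left panel) and the deeper set (right panel). MSI1 is at 9.43% at 6 h and between 40.4% and 42.9% at 18, 24 and 30 h, while SOX1 stays at or under 7.14%.

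The other lists give the setting. Of 24 other neural progenitor genes, 10 were at least 2-fold higher at 30 h than at 6 h and 1 was lower, where 12.5% and 5.67% of genes above 0 were, with a median of 0.40. Among these, LIX1 averaged 23.9 against 1.09 TPM, CDH2, the neural cadherin, 11.8 against 2.02 TPM, PROM1 86.7 against 19.9 TPM and the receptor NOTCH1 40.2 against 10.5 TPM. SOX2, the SOX gene shared by pluripotent and neural cells, averaged 4.32 against 2.78 TPM. Of 15 early neuron genes 9 were higher, where 12.5% of genes were, among them STMN2 with 124 against 9.57 TPM and NEFL, a neurofilament, with 72.2 against 8.02 TPM. Of 13 core pluripotency genes 8 were lower, where 5.67% of genes above 0 were, with POU5F1 at 53.4 against 307 TPM. Of 9 genes of mature glia, GFAP, AQP4, OLIG1, OLIG2 and SOX10 were at 0 in every kept cell of both times, and MBP averaged 11.1 against 3.61 TPM. Of 12 mesoderm and endoderm genes 3 were higher, where 12.5% of genes were, chiefly T (Brachyury), a mesoderm factor, with 49.3 against 0.31 TPM and 31.6% against 7.55% of cells above 0.

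STMN2 itself was found in 24 of 53, 46 of 56, 48 of 55 and 49 of 57 cells at 6, 18, 24 and 30 h, and averaged 9.57, 45.7, 132 and 124 TPM. From 18 h on, most cells with a progenitor gene therefore also held STMN2. At 6 h PAX6 and STMN2 were together in 9 cells, STMN2 alone was in 15, PAX6 alone in 11 and neither in 18. The same counts were 27, 19, 4 and 6 at 18 h, 24, 24, 3 and 4 at 24 h, and 34, 15, 8 and 0 at 30 h. FABP7 was with STMN2 in 28 cells at 30 h and without it in 6, and VIM with it in 42 and without it in 6. At 30 h 28 cells held both PAX6 and FABP7, and 22 of these also held STMN2. Raising the bar to 10 TPM for both genes left 33 cells with PAX6 at 30 h, 24 of them with STMN2, and 32 with FABP7, 23 of them with STMN2. Over all cells 42 of 57 had STMN2 at that bar, so both shares are close to that of all cells. The counts for PAX6, FABP7 and all cells were 1 of 11, 3 of 17 and 13 of 53 at 6 h. At 18 h they were 15 of 22, 20 of 30 and 37 of 56, and at 24 h 16 of 21, 28 of 36 and 40 of 55.

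Whether that overlap is more or less than the share of STMN2 alone would give is read from the share of each member in cells with and without STMN2. PAX6 was found in 37.5% of STMN2-positive and 37.9% of STMN2-zero cells at 6 h, in 58.7% and 40.0% at 18 h and in 50.0% and 42.9% at 24 h. At 30 h it was in 69.4% (54.6 to 81.7) of STMN2-positive cells and in 8 of 8 STMN2-zero cells, a difference of −30.6 percentage points (Newcombe 95% interval −44.5 to 3.67). Over the 4 times the mean difference was −1.30 points (−15.1 to 13.3) for PAX6, 4.12 (−9.30 to 19.9) for FABP7 and 3.52 (−6.12 to 18.9) for VIM. It was −7.01 (−21.3 to 8.28) for NES and 9.35 (−6.14 to 21.6) for MSI1, and the intervals of SOX1, SOX3 and SOX9 also included 0. In the mean over these 4 times, no member's difference went beyond counting error in either direction. Without the limit of 2000 genes the differences were 37.6 points for PAX6, 40.0 for FABP7 and 55.6 for VIM, in cells whose depth then varied far more. The STMN2-zero groups hold 29, 10, 7 and 8 cells, which limits these differences. At 18 h they also had a lower depth, with a median of 7446.5 genes in STMN2-positive cells and 5045 in STMN2-zero cells. Among these 4 times, only there did a member's own interval leave out 0: VIM was in 95.7% of STMN2-positive and 70.0% of STMN2-zero cells (25.7 points, 3.90 to 56.1).

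**Figure D3:**
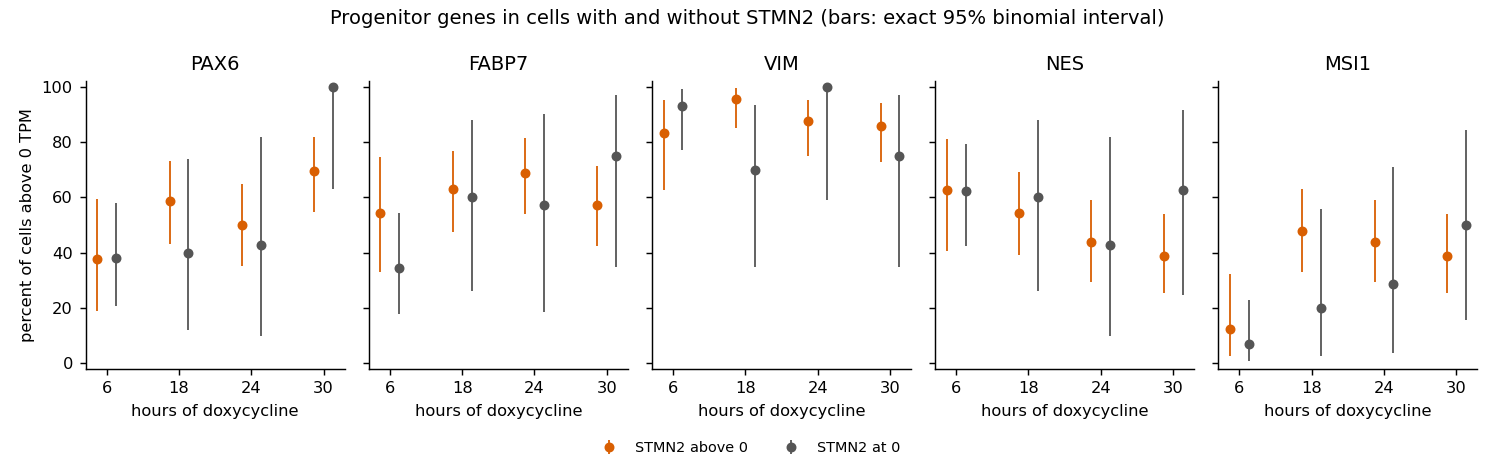
Percent of cells above 0 TPM for 5 genes in cells with STMN2 above 0 (orange, left of each pair) and with STMN2 at 0 (grey), at 6, 18, 24 and 30 h, with exact 95% binomial intervals. The intervals of the 2 classes overlap for every gene and time shown, and the grey intervals are wide because only 7 to 29 cells had no STMN2.

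Splitting at the median of STMN2 gives groups of like size from 18 h on, and in it PAX6 was found more often in the cells with more STMN2. It was in 67.9% against 42.9% at 18 h, 63.0% against 35.7% at 24 h and 82.1% against 65.5% at 30 h, with differences of 25.0 (−0.88 to 46.7), 27.3 (0.95 to 48.8) and 16.6 (−6.31 to 37.4) points and median depths of 7158 against 7539.5, 6751 against 6652.5 and 6469 against 6660 genes. NES leaned the other way, with 50.0% against 60.7% at 18 h, 40.7% against 46.4% at 24 h and 28.6% against 55.2% at 30 h (−26.6 points, −47.7 to −1.06). FABP7 had no constant direction, with 57.1% against 67.9%, 70.4% against 64.3% and 53.6% against 65.5% at 18, 24 and 30 h. VIM was in 100% against 82.1% at 18 h (17.9 points, 2.20 to 35.6), in 88.9% against 89.3% at 24 h and in 92.9% against 75.9% at 30 h (17.0 points, −2.56 to 35.7).

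The level of VIM was higher in STMN2-positive cells at 18, 24 and 30 h. In STMN2-positive cells VIM averaged 141 ± 176, 308 ± 337 and 271 ± 399 TPM at 18, 24 and 30 h, against 65.9 ± 115, 131 ± 89.4 and 79.1 ± 97.9 TPM in STMN2-zero cells. The log2 ratios were 1.09, 1.23 and 1.76, where 17.0%, 15.7% and 14.9% of genes passing the filter were at least 2-fold higher. With the median split VIM averaged 184 against 71.7 TPM (1.35) at 18 h, where 6.88% of genes were past 2-fold, and 382 ± 481 against 110.1 ± 151 TPM (1.79) at 30 h, where 8.40% were. At 24 h the same split gave 365 ± 381 against 208 ± 232 TPM (0.81), under 2-fold, where 8.06% of genes were past it. At 6 h VIM did not differ by 2-fold, with 89.7 against 98.5 TPM in the STMN2-positive and STMN2-zero cells.

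The mean of PAX6, though not its median, was lower in STMN2-positive cells at 6, 18 and 24 h. It was 8.22 ± 23.4 TPM in STMN2-positive cells against 21.2 ± 49.4 TPM in STMN2-zero cells at 6 h, a log2 ratio of −1.27, where 7.38% of genes passing the filter were at least 2-fold lower. At 18 h it was 24.3 ± 50.8 against 61.1 ± 125 TPM (−1.30), where 14.5% were, but the split at the median of STMN2 gave 31.5 against 30.2 TPM (0.06). At 24 h PAX6 averaged 24.5 ± 45.6 against 36.9 ± 66.8 TPM (−0.58) and at 30 h 42.3 ± 64.9 against 34.5 ± 28.9 TPM (0.29), both under 2-fold. The small STMN2-zero groups lean on single cells, the highest with 235, 399 and 172 TPM at 6, 18 and 24 h. The first 2 of these were shallow, with 2720 and 2109 genes. The highest STMN2-positive cells had 114, 298 and 259 TPM. Median PAX6 was 0 in both groups at 6 h, 2.385 against 0 TPM at 18 h and 0.245 against 0 TPM at 24 h. FABP7 was lower in the mean in STMN2-positive cells at all 4 times, with 29.2 ± 76.9 against 70.4 ± 193 TPM (−1.24) at 6 h, 68.2 ± 111 against 78.0 ± 118 TPM (−0.19) at 18 h and 99.7 ± 154 against 179.5 ± 209 TPM (−0.84) at 24 h. It averaged 154 ± 205 against 328 ± 748 TPM at 30 h, a log2 ratio of −1.08 that rests on the cell with 2171 TPM: without the highest cell of each group it is 1.13, and 8.59% of genes passing the filter were at least 2-fold lower.

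Ranked over all kept cells of a time point, with the number of genes per cell removed from both ranks, the Spearman correlation of VIM with STMN2 was −0.05, 0.35, 0.24 and 0.45 at 6, 18, 24 and 30 h (53, 56, 55 and 57 cells). The same measure averaged 0.08 for PAX6, 0.11 for MSI1, −0.06 for FABP7 and −0.16 for NES over the 4 times, all weak values in sparse data. Cells of a time point share their plate, and the values are descriptions.

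**Figure D4:**
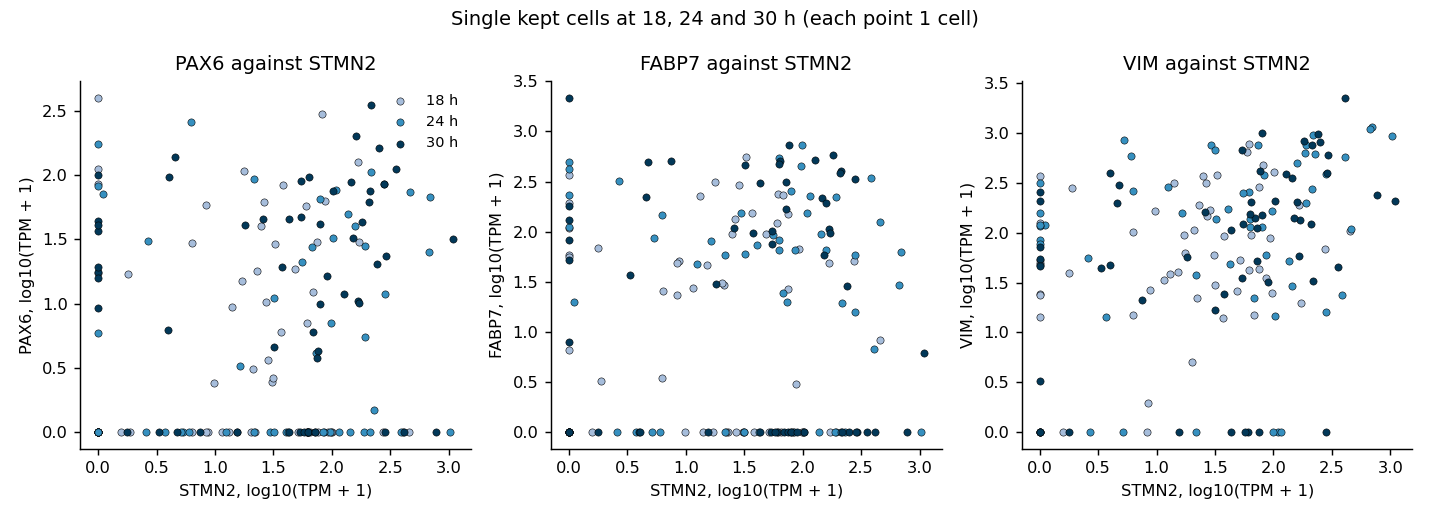
Each point is 1 kept cell at 18, 24 or 30 h, with STMN2 on the horizontal axis and PAX6, FABP7 or VIM on the vertical axis, all as log10(TPM + 1). The upper right of the VIM panel is filled, with the highest VIM cell at 2273 TPM and 411 TPM of STMN2, while the highest FABP7 cell, at 2171 TPM, has STMN2 at 0.

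Single cells at the top of each gene show the same mixture. At 30 h the highest PAX6 cell had 350 TPM of PAX6 with 215 TPM of STMN2 and no FABP7, in a shallow cell of 2056 genes. The second was a cell of 6262 genes that held 193 TPM of FABP7, 204 TPM of VIM and 159 TPM of STMN2. The highest FABP7 cell had 43.1 TPM of PAX6 and 17.8 TPM of SOX1 but no STMN2, and the next 3 FABP7 cells had 75.3, 180 and 127 TPM of STMN2. At 36 h the cell with 10500.5 TPM of FABP7 also had 351 TPM of PAX6 and 719 TPM of STMN2. Progenitor and neuronal transcripts were thus present together within single wells, and whether a well held more than 1 cell was not tested. Over all 36 h cells FABP7 was in 9 of 23 STMN2-positive cells (39.1%) and in 13 of 21 STMN2-zero cells (61.9%), a difference of −22.8 points (−47.0 to 6.30), and SOX9 was in 7 of 23 and 8 of 21.

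At 0, 12 and 48 h only 10, 5 and 7 cells held STMN2, so the same split rests on few cells there. Median depth at 0 h was 5526 genes in STMN2-positive and 5204 in STMN2-zero cells. Before doxycycline NES was in 6 of 10 STMN2-positive cells and 3 of 27 STMN2-zero cells, a difference of 48.9 points (15.5 to 73.2), with means of 14.0 ± 35.3 and 2.58 ± 8.23 TPM. The first mean rests largely on a cell of 113.5 TPM, and the medians were 1.275 and 0 TPM. The 6 cells with both genes had NES at 13.7, 3.42, 0.88, 113.5, 1.67 and 6.84 TPM. In the same order STMN2 was at 27.3, 1.42, 1.56, 3.25, 10.6 and 77.9 TPM, so the overlap rests largely on low values. SOX1 was in 2 of 10 and 0 of 27 (20.0 points, 1.01 to 51.0), at only 2.63 and 1.69 TPM. VIM leaned the other way at 0 h, in 2 of 10 and 12 of 27, with 0.53 against 35.9 TPM (−4.59). At 12 h VIM was in 2 of 5 STMN2-positive and 12 of 47 STMN2-zero cells, with 162 against 22.5 TPM (2.79), at 36 h in 3 of 23 and 4 of 21, with 69.4 against 20.6 TPM (1.70), and at 48 h in 3 of 7 and 4 of 7, with 83.0 against 205.8 TPM (−1.30), so its direction was not constant in the shallower set. FABP7 was in 0 of 5 and 10 of 47 cells at 12 h and NES in 0 of 5 and 11 of 47. Of the 32 differences for the 8 members at 0, 12, 36 and 48 h, those of NES and SOX1 at 0 h had intervals that left out 0.

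VIM, FABP7 and PAX6 were next used to split the cells in turn at their own median, a choice made after values had been seen, and the 15 early neuron genes were read in each split. In cells with VIM above its median, 5, 9, 11 and 14 of the 15 were at least 2-fold higher at 6, 18, 24 and 30 h, where 9.59%, 12.3%, 13.8% and 16.8% of genes above 0 were. With a pseudocount of 10 TPM the 18 h count was 3. The list's median log2 ratio was 0.34, 1.20, 1.65 and 2.33 in the same order. At 30 h the 28 cells above the median had 132.5 TPM of VIM or more and the 29 others 121.2 TPM or less. In the first group TUBB3, a neuronal tubulin, averaged 344 ± 589 TPM against 13.3 ± 27.8 TPM in the others, RTN1 297 ± 355 against 40.8 ± 92.5 TPM, GAP43, a growth cone protein, 354 ± 353 against 82.5 ± 123 TPM, and STMN2 182 ± 239 against 67.2 ± 91.3 TPM. Core pluripotency genes were the reverse, with 7 of 13 at least 2-fold lower and 0 higher at 30 h, where 7.36% of genes above 0 were lower. NANOG averaged 8.79 ± 26.1 against 112 ± 260 TPM and TDGF1 0.51 ± 1.19 against 41.4 ± 95.0 TPM. These genes are named after their values were seen. Median depth was 6596 genes in the cells above the median and 6384 in the others. Of the 24 other progenitor genes 5 were higher and 2 lower, where 16.8% and 7.36% of genes above 0 were, so both counts are close to those shares. HES1, a Notch target, was 1 of the 2 lower genes and was named after its values were seen. It averaged 12.0 ± 20.2 against 48.9 ± 100.2 TPM. The 5 higher genes went the other way, so HES1 does not stand for the list.

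The other members gave other counts. In cells with FABP7 above its median, 0 of the 15 early neuron genes were at least 2-fold higher and 8 were lower, where 10.5% and 8.66% of genes above 0 were, with a median log2 ratio of −1.05. NEFL averaged 16.7 ± 35.3 against 126 ± 291 TPM and ELAVL3, a neuronal RNA-binding protein, 4.73 ± 10.6 against 20.6 ± 55.6 TPM, with median depths of 6489 and 6481 genes. These are differences of means at 30 h, and the medians of NEFL, NEFM and ELAVL3 were 0 in both groups. Among the 8, median GAP43 was 107 against 130 TPM and median STMN3 0 against 28.55 TPM. Median DPYSL3 went the other way, with 17.5 against 0 TPM. At 6, 18 and 24 h the same split gave 5, 3 and 0 genes higher, where 9.36%, 7.34% and 8.30% of genes above 0 were, and 0, 1 and 1 lower, where 6.58%, 9.65% and 9.52% were, so the 30 h pattern was not seen earlier. For PAX6 the counts ran from more lower genes at 6 h to more higher genes at 30 h. At 6 h, when the median of PAX6 is 0 and the split sets 20 PAX6-positive cells against 33 PAX6-zero cells, 1 of 15 was higher and 5 were lower, where 7.76% and 8.59% of genes above 0 were. At 18 h 3 were higher and 1 lower, where 8.70% and 8.29% of genes were, and at 24 h 4 were higher and 0 lower, where 9.17% and 9.09% were. At 30 h 7 were higher and 0 lower, where 11.6% and 7.85% were, but only 2 were higher in odd-numbered cells and 11 in even-numbered cells, so this last count is not stable between subsets of cells. For NES the count was 0 in either direction at 30 h, where 10.2% of genes were higher and 7.85% lower, while at 18 h 0 of 15 were higher and 7 lower, where 9.88% and 6.83% of genes were. The direction of the means for NES was not constant. At 6 h GAP43, STMN3 and DPYSL3 were past 2-fold higher (1.53, 1.07 and 1.03), where 9.38% of genes were. At 24 h DCX, NEFL and NEFM were past 2-fold lower (−2.17, −2.675 and −3.06), where 9.56% were. No listed gene was past 2-fold the other way at these times. The medians of DCX, NEFL and NEFM at 24 h were 0 in both groups. Their highest cells among those not above the NES median had 277, 1210 and 639.5 TPM. At 6 h the medians of STMN3 and DPYSL3 were likewise 0 in both groups, and GAP43 had 44.1 against 0 TPM. MSI1 had 2 higher and 3 lower at 30 h, where 11.0% and 8.19% of genes were.

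**Figure D5:**
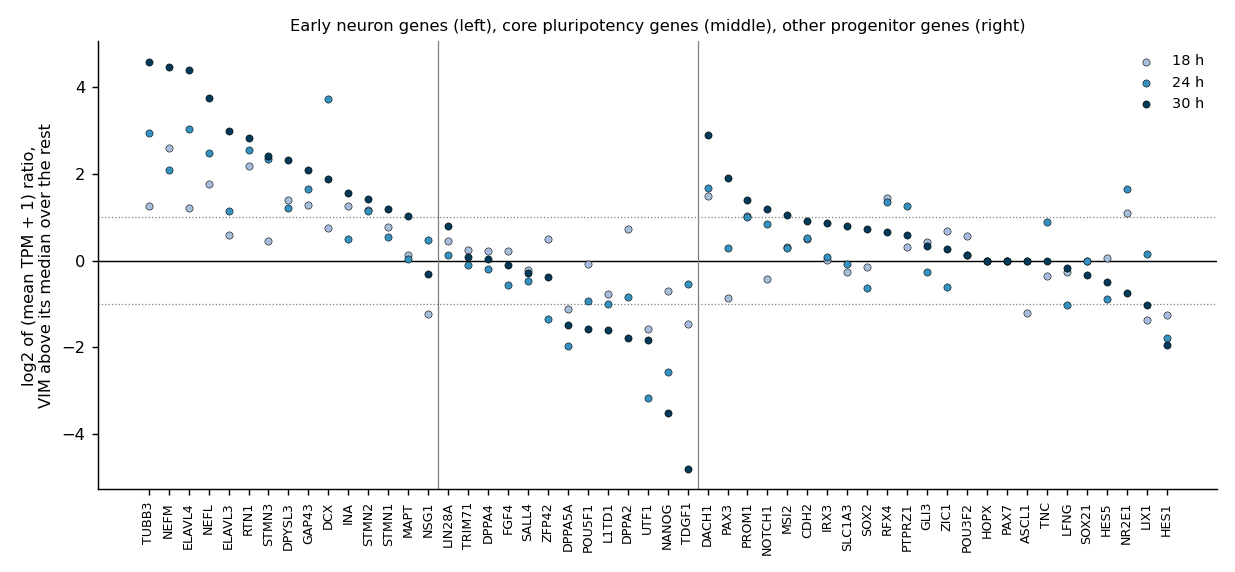
Each point is the log2 ratio of (mean TPM + 1) in cells with VIM above its median over the rest, at 18, 24 and 30 h, for early neuron genes (left), core pluripotency genes (middle) and other progenitor genes (right), with dotted lines at 2-fold. At 30 h 14 of the 15 early neuron genes lie above the upper line and 7 of the 13 pluripotency genes below the lower line.

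The genes whose cell-to-cell pattern was most like each member, by the mean partial rank correlation over 6, 18, 24 and 30 h among 7210 or 7211 candidate genes, differed between members. Over all candidates the median was 0.01 (NES) to 0.04 (VIM) and the 95th percentile 0.13 (NES) to 0.22 (VIM). The named genes are the top of a long ranking, and how high its top would be without any relation was not tested. For VIM they were RTN1 (0.48), CALD1 (0.46) and TAGLN3 (0.46), with TUBB3 at rank 50 and STMN2 at rank 242. VIM also followed the induced factor genes, with a mean of 0.41 for LHX3 and 0.32 for ISL1. For PAX6 they were LTA4H (0.31), MACF1 (0.31) and CHD1 (0.30), with STMN2 at rank 1694, and PAX6 averaged 0.28 with ISL1 and 0.26 with LHX3. For MSI1 they were TRP53I11 (0.36), CPLX2 (0.33) and SLC15A2 (0.32), with PAX6 at rank 189. For FABP7 they were GNPNAT1, CHRNA3 and HMGN2 (0.29 each), with STMN2 at rank 6093, and for NES they included YAP1 (0.30) and CTSL (0.24), with STMN2 at rank 7147. NES averaged 0.20 with POU5F1, the pluripotency factor, whereas VIM averaged −0.23 with it. Among the members themselves the highest mean value was 0.17, between PAX6 and MSI1, and PAX6 and NES averaged −0.15.

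Keratin levels also moved with PAX6 at 30 h. Of simple epithelium genes, KRT8 and KRT18 encode paired keratins, and the summed level of the 7 listed genes had a median of 1099.6 TPM (range 110.5 to 5285) in PAX6-positive cells, against 202.6 TPM (5.78 to 2709.4) in PAX6-zero cells. These groups hold 42 and 15 cells. KRT8 averaged 822 ± 639 against 308 ± 445 TPM. Of the 7 genes 2 were at least 2-fold higher and 1 lower, where 15.3% and 7.15% of genes above 0 were, and median depth was 6501 and 6411 genes. At 6 h the medians were 186 and 239 TPM, at 18 h 417 and 423.5 TPM and at 24 h 919 and 782 TPM, so the difference was seen at 30 h only. In the mean over 6, 18, 24 and 30 h KRT8 was not particular to PAX6. Its mean partial rank correlation over these times was 0.16 with PAX6, 0.17 with VIM, 0.16 with FABP7 and 0.16 with MSI1, but −0.01 with NES. These means hide a wider range for PAX6, from −0.001 to 0.49 over the 4 times. The range was 0.04 to 0.30 for VIM, 0.09 to 0.21 for FABP7 and 0.08 to 0.23 for MSI1. What part the keratin levels had in the PAX6 values was not tested.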

How the data were processed

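Single mouse cells, 96 at each of 8 time points, were profiled with 50 bp single-end reads in 1 deposited table of 27723 genes. The values are TPM computed by the authors and deposited as such; per the file headers the columns carry the word rsem. Picard, bcl2fastq and the build mm10 are listed in the submitters' processing notes, and neither an aligner nor an annotation is named in the labels or headers. Because TPM retains no depth, the reads behind a value are unknown, and the number of genes above 0 served instead. Within a cell TPM are parts of a whole, so very abundant transcripts push down the rest.

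The 8 members, the gene lists and the 2 library sets were chosen with earlier results of these data known. Cells with under 2000 genes above 0 were left out. Fold changes are log2 of (mean + 1) ratios, which understate low genes, with a filter of 10 TPM mean and 25% of cells in the higher group. A gene was counted as higher or lower at 2-fold, a measure of size and not a test. Shares have exact 95% binomial intervals, differences Newcombe intervals, and the mean of 4 differences combines them. Named genes are the members, the 3 genes most like each member found in at least 25% of cells at 18, 24 and 30 h, and for each list up to 4 genes that pass the filter and differ most between 30 h and 6 h. One gene that this rule names is not reported here. SOX2, HES1, TUBB3, GAP43, RTN1, NANOG, TDGF1, ELAVL3, STMN3, DPYSL3, DCX, NEFM, LHX3, ISL1 and the glial genes at 0 were named after their values were seen where that rule does not name them. Of 106 list genes 105 were matched by symbol. No column was left unused. Alternatives changed the pseudocount, the depth limit, the detection level, the splitting gene, the highest cell and the cells or time points used. The software was scipy 1.17.1, pandas 2.3.3 and numpy 2.4.6 under Python 3.11.15, with matplotlib 3.10.9 for figures.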

Additional observations from a re-analysis of the deposited data

How the results depend on the processing

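Over 52 results 439 alternative values were computed, of which 378 were labelled the same, 55 moved and 6 reversed. Same meant a fold change on its side of 2-fold or a count within a set factor. For share differences it meant within the reported interval, and for correlations within the range over time points. Reversal was labelled only for fold changes past 2-fold, share differences whose interval left out 0 and correlations of the same sign at all times. The cause was not tested unless named. Including all cells, shallow ones too, gave FABP7 a log2 ratio of −0.66 at 30 h and −1.51 at 24 h against 6 h, and SOX9 −1.74 at 12 h and −0.17 at 36 h against 0 h. With all cells the mean share difference between STMN2-positive and STMN2-zero cells was 37.6 points for PAX6, 40.0 for FABP7 and 55.6 for VIM; with at least 1000 genes it was 21.4 for FABP7 and 22.9 for VIM. With STMN2 above its median it was 17.1 for PAX6, and PAX6 had a log2 level ratio of 0.058 at 18 h, against −1.30 with STMN2 above 0. Without 30 h the PAX6 difference was 8.47. The FABP7 level ratio at 30 h was −0.50 with STMN2 above its median, −0.76 with at least 1000 genes and 1.13 without the highest cell. The mean correlation of FABP7 with STMN2 was −0.088 with at least 4000 genes and −0.013 with at least 1000 genes, and that of NES −0.13 with at least 1000 genes. Early neuron genes at least 2-fold higher with VIM above its median were 3 at 18 h with a pseudocount of 10 TPM. At 30 h they ranged from 11 to 14 over the 8 alternatives, and the genes lower with FABP7 above its median from 7 to 11. The count with PAX6 above its median at 30 h was 2 in the deeper cells of that time, 2 in odd-numbered cells and 11 in even-numbered cells. The VIM, PAX6 and FABP7 splits, the 1000-gene limit and the left-out time points were added after seeing the data. No cell at 36 or 48 h reached 4000 genes, so that alternative gives no value there. No paired analysis was possible because cell numbers only name wells and no test was made. With 7 to 10 STMN2-zero cells at 18, 24 and 30 h, the intervals on share differences were wide. A difference whose interval reached 0 could not be told from counting error.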
